A study of Mus musculus with 9 samples.

Results

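Trex1, Samhd1, Pld3, Pld4, Dnase2a and Dnase1l3, called nuclease genes here, were followed in mouse plasmacytoid dendritic cells (pDCs), the dendritic cells that make large amounts of type I interferon. Apart from SAMHD1, which hydrolyses deoxynucleotides, their products clear DNA or other nucleic acids from the cytosol, from endosomes and from outside the cell. The genes were chosen by name, and all 6 were found among the 57126 genes of the table. The cells were sorted by flow cytometry and exposed to oxidized mitochondrial DNA (Ox-mtDNA), to mitochondrial DNA (mtDNA) or to PBS, the vehicle, with 3 polyadenylated RNA libraries per group and 9 in all. Dose, exposure time, mouse strain and age were not given in the sources used here. Whether replicates were separate mice or cultures was not given either, and p-values then reflect only the spread among these libraries, which may be technical.

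DNA that reaches a pDC from dying cells enters through endosomes, where Toll-like receptor 9 reads it, and some reaches the cytosol, where cGAS reads it. Nucleases set how much DNA these sensors meet. TREX1 is the main exonuclease of cytosolic DNA, and SAMHD1 hydrolyses deoxynucleotides and helps process DNA at stalled replication forks. PLD3 and PLD4 are exonucleases of single-stranded DNA and RNA in endosomes and lysosomes, DNase II (Dnase2a) is the acid endonuclease of lysosomes, and DNASE1L3 is a secreted endonuclease that digests chromatin outside the cell. In humans, loss of TREX1 or SAMHD1 causes the interferonopathy Aicardi-Goutières syndrome, and loss of DNASE1L3 causes a familial form of lupus. Trex1 and Samhd1 are also known as genes that interferon can induce.

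Libraries held 16029951 to 25378884 counts. The replicate 3 libraries stood apart from the other 6 on the first principal component, which held 70.7% of the variance, and in these libraries GC-rich genes were low. The 15 pDC marker genes summed to 7270 to 13300 CPM (normalised read counts, scaled by the TMM method of edgeR) in 8 libraries and to 4980 CPM in Ox-mtDNA replicate 2, where 8 of the 15 were at their lowest of the 9 libraries. Of the 15, 13 had negative fold changes in Ox-mtDNA against PBS (median log2 fold change -0.68) and 13 in mtDNA against PBS (median -0.14), where 46.2% and 48% of tested genes were negative. In Ox-mtDNA against PBS 4 had an edgeR unadjusted p under 0.05 (26.7%, beside 9.81% of tested genes), 5 were below without overlap (beside 8.08%) and 0 passed the threshold by edgeR. In mtDNA against PBS these counts were 1 (6.67%, beside 2.62%), 1 (beside 4.96%) and 0. All 8 erythroid markers together gave 0.326 to 1.22 CPM, and the 12 B cell markers gave 1790 to 3360 CPM, most of it from Ighm. In Ox-mtDNA replicate 2, 7 of the 12 B cell markers were at their highest of the 9 libraries, with Cd79a at 182 CPM and Pax5 at 106.5 CPM. In PBS replicate 3, 5 of the 15 pDC markers were at their lowest and 5 at their highest. The share of all tested genes at their highest or lowest in a library is not given here, so these counts lack a background. Fold changes were negative for 12 of the 12 B cell markers in mtDNA against PBS and positive for 12 of the 12 in Ox-mtDNA against mtDNA, with 0 past the threshold by edgeR, DESeq2 or limma-voom. Over all tested genes 48% were negative in mtDNA against PBS and 54.2% positive in Ox-mtDNA against mtDNA. At an edgeR unadjusted p under 0.05 there was 1 B cell marker in mtDNA against PBS (8.33%, beside 2.62% of tested genes) and 0 in Ox-mtDNA against mtDNA (beside 2.4%), and 4 of the 12 were below without overlap in mtDNA against PBS (beside 4.96%). In bulk RNA, fewer cells of a type and less RNA per cell cannot be told apart.

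Stretches of sequence near the transcription starts are shown because Trex1 and Samhd1 are known interferon-inducible genes, and each stretch holds letters of an interferon or myeloid factor motif. RefSeq windows of 300 bases (250 before and 50 after a start, GRCm38.p6) matched 5 of the 6 genes by symbol, with 2 windows for Trex1, and Dnase1l3 is named only. Stretches of 30 bases run 5′ to 3′ on the strand of the gene, with the match in capitals. The stretches lie at chr9:109059233-109059262 (minus strand, Trex1), chr2:157135312-157135341 (minus, Samhd1), chr7:27553439-27553468 (minus, Pld3) and chr12:112760653-112760682 (plus, Pld4).
Trex1: caggcagttttACTTCCTCagccacactgc
Samhd1: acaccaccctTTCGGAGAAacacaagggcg
Pld3: tcaGAAAGAGAAAtcatttatctgatcgta
Pld4: ctcagaacaaaGAGGAAGTgaatggaaggg

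In Trex1 and Pld4 the capitals are the letters of the PU.1 core, GAGGAAGT, read on the opposite strand in Trex1. The match began at base 1 of the transcript in Trex1 and at base 10 in Pld4. For Trex1 this is counted from the transcription start of the window that held the match, and its other window did not hold the pattern. The pattern occurred in 3.2% of all 32851 windows of the same length. In Samhd1 the capitals match TTCNNNGAA, the letters of a gamma-activated site, found in 8.3% of windows. In Pld3 they match GAAA, any 2 bases and GAAA, the letters of an interferon-stimulated response element, found in 3.44% of windows. No window of Trex1 held the letters of either interferon motif, and the Samhd1 window did not hold those of the interferon-stimulated response element. Counted from the start, the matches began at position -235 in Samhd1 and -247 in Pld3. In the GENCODE M21 annotation of that build, 30 of the 30 bases shown for Trex1 and 28 of the 30 for Pld4 were exonic, against 0 for Samhd1 and Pld3.

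These 3 patterns were picked for display out of 14 that were searched on both strands. The choice was made after the search, among patterns that at least 1 of the genes held. A match was therefore fixed by the choice, and the shares of windows are no test of it. No window of the 5 genes held the lysosomal gene element TCACGTGA (0.974% of all windows), the E-box CACGTG (7.15%), which lies inside it, the NF-kB letters GGGA, any 4 bases and CC (20.7%), the TATA box TATAAA (13.6%), the heat shock element of GAA, any 2 bases, TTC, any 2 bases and GAA (0.603%) or the IRF and ETS composite of GGAA, any 2 bases and GAAA (2.72%). The single IRF repeat GAAANN (89.1%), which lies inside the interferon-stimulated response element, the GC box GGGCGG (35.7%), the ETS core GGAAGT (23.8%), which lies inside the PU.1 core, the CCAAT box CCAAT (37.4%) and the NRF1 letters GCGC, any 2 bases and GCGC (6.23%) each had a match in at least 1 of the 5 genes. A match describes letters only, and a missing match says nothing of a factor.

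Ox-mtDNA was set against PBS to see what oxidized DNA from mitochondria does to pDCs. Trex1 was lower in all 3 Ox-mtDNA libraries than in any PBS library and had the most negative fold change of the 6 genes. Samhd1 was also lower without overlap, by a smaller margin. Pld3, Pld4, Dnase2a and Dnase1l3 overlapped between the groups. By the quasi-likelihood test of edgeR, 0 of the 6 genes passed an adjusted p of 0.05, as did 0 of 17555 tested genes (0%). At an unadjusted p under 0.05 there was 1 of 6, Trex1, against 9.81% of tested genes. The Wald test of DESeq2 called 1 of 6, again Trex1, against 2.12% of genes, and limma-voom called 0. Groups did not overlap, in the lower direction, for 2 of the 6 genes and for 8.08% of tested genes, and in either direction for 15.5% of tested genes.

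Trex1 (ENSMUSG00000049734.10, chromosome 9, 108887001 to 108888802, minus strand, GRCm39) had 71.4, 74.5 and 56.6 CPM in the Ox-mtDNA libraries (replicates 1 to 3, the order of all values by library), then 149, 144 and 84.8 CPM in mtDNA and 135, 156 and 173 CPM in PBS. The Ox-mtDNA libraries lay below all 6 others, and mtDNA replicate 3 lay between them and the remaining 5. The group means were 67.5 ± 9.59 CPM in Ox-mtDNA, 126 ± 35.7 CPM in mtDNA and 155 ± 19 CPM in PBS (SD, n = 3 each).

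Against PBS, the log2 fold change of Trex1 in Ox-mtDNA was -1.19 (SE 0.287, edgeR adjusted p = 0.472), which is 0.437 of the PBS level, with a 95% interval of -1.85 to -0.54. The differences were -0.91, -1.07 and -1.61 in replicates 1, 2 and 3, all negative as the lack of overlap requires. Its edgeR p of 0.00292 ranked 86th of 17555. DESeq2 gave an adjusted p = 0.00807, and over the alternatives tried for this value the adjusted p ran between 0.00807 and 0.801. With the replicate number as a block the log2 fold change was -1.22 (SE 0.254, edgeR adjusted p = 0.119), and in replicates 1 and 2 only it was -0.99 (SE 0.185, edgeR adjusted p = 0.13). A two-sided exact permutation test of 3 against 3 libraries gave p = 0.1, the smallest that this design allows.

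Trex1 lies 13 bases from Atrip, which encodes the partner of the ATR checkpoint kinase, and no gene of the table shares exon bases with it. Atrip had 32, 21.2 and 50.9 CPM in the Ox-mtDNA libraries, then 21, 22.2 and 52.3 CPM in mtDNA and 23, 22 and 22.2 CPM in PBS. Its 2 high libraries were replicate 3 of Ox-mtDNA and of mtDNA, where Trex1 was at its lowest within each group. On the other side, 156 bases away, Shisa5 had 124, 211 and 126 CPM in the Ox-mtDNA libraries, then 240, 425 and 123 CPM in mtDNA and 215, 325 and 216 CPM in PBS. The Ox-mtDNA libraries of Shisa5 also lay below all PBS libraries, with a log2 fold change of -0.71 (SE 0.461, edgeR adjusted p = 0.721). Counting did not use strand.

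Samhd1 (ENSMUSG00000027639.17, chromosome 2, 156939453 to 156977185, minus strand) had 317, 231 and 290.0 CPM in the Ox-mtDNA libraries, then 418, 761 and 261 CPM in mtDNA and 379.7, 579.9 and 413 CPM in PBS. The Ox-mtDNA libraries were below all PBS libraries, while mtDNA held both the highest library and one inside the Ox-mtDNA range. The log2 fold change of Ox-mtDNA against PBS was -0.71 (SE 0.399, edgeR adjusted p = 0.638, 95% interval -1.63 to 0.20). Differences by replicate were -0.26, -1.33 and -0.51.

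**Figure D1:**
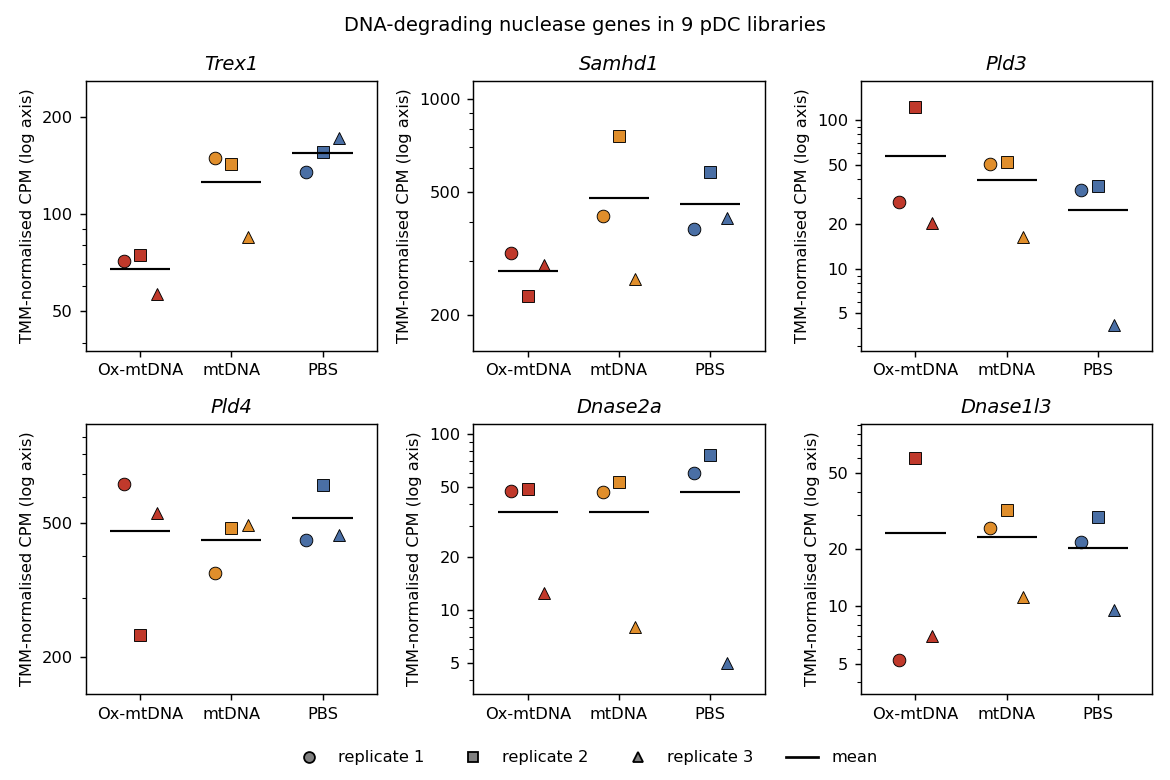
TMM-normalised CPM (log axis) of each nuclease gene in the 9 libraries, with Ox-mtDNA, mtDNA and PBS from left to right, a symbol for each replicate number and a line at the group mean. Trex1 sits at 56.6 to 74.5 CPM in Ox-mtDNA, under the 84.8 to 149 CPM of mtDNA and the 135 to 173 CPM of PBS, and Dnase2a is at 5.01 to 12.5 CPM in the replicate 3 libraries of all groups.

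Pld3 (ENSMUSG00000003363.16, chromosome 7, 27231425 to 27252643, minus strand) had 28.2, 121.9 and 20.4 CPM in the Ox-mtDNA libraries, then 50.3, 52.4 and 16.4 CPM in mtDNA and 33.9, 35.99 and 4.21 CPM in PBS. Ox-mtDNA replicate 2 was the highest of the 9 libraries and PBS replicate 3 the lowest, and all groups overlapped. The log2 fold change of Ox-mtDNA against PBS was 1.2 (SE 0.944, edgeR adjusted p = 0.818), with differences of -0.26, 1.76 and 2.25 by replicate. Without Ox-mtDNA replicate 2 it was -0.04 (edgeR adjusted p = 0.998). With the replicate block it was 1.29 (SE 0.488, edgeR unadjusted p = 0.0296, adjusted p = 0.218). Under the block 2 of the 6 genes, Trex1 and Pld3, had an unadjusted p under 0.05 in Ox-mtDNA against PBS, where 19.1% of tested genes did.

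Pld4 (ENSMUSG00000052160.8, chromosome 12, 112727089 to 112735424, plus strand) had 656, 234 and 537 CPM in the Ox-mtDNA libraries, then 355, 485 and 494.5 CPM in mtDNA and 446, 649 and 462 CPM in PBS. The lowest library was Ox-mtDNA replicate 2, the one in which Pld3 was highest, and the highest was Ox-mtDNA replicate 1. The log2 fold change was -0.13 (SE 0.389, edgeR adjusted p = 1, 95% interval -1.02 to 0.77). Without Ox-mtDNA replicate 2 it was 0.19. The low Pld4 value stood in the library with the low pDC marker sum of 4980 CPM and with 7 of 12 B cell markers at their highest, and the part of cell makeup in it was not tested.

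Dnase2a (ENSMUSG00000003812.14, chromosome 8, 85635189 to 85638337, plus strand) had 47.4, 48.4 and 12.5 CPM in the Ox-mtDNA libraries, then 46.8, 52.9 and 7.99 CPM in mtDNA and 59.8, 75.3 and 5.01 CPM in PBS. Replicate number, rather than group, separated the low libraries from the high ones. The log2 fold change of Ox-mtDNA against PBS was -0.37 (SE 1.01, edgeR adjusted p = 1). In replicates 1 and 2 only it was -0.49 (SE 0.207, edgeR adjusted p = 0.339), with both PBS libraries above both Ox-mtDNA libraries, while in replicate 3 the difference was 1.31.

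Dnase1l3 (ENSMUSG00000025279.8, chromosome 14, 14475200 to 14505240, plus strand) had 5.20, 60.25 and 6.965 CPM in the Ox-mtDNA libraries, then 25.9, 31.9 and 11.2 CPM in mtDNA and 21.6, 29.4 and 9.57 CPM in PBS. Ox-mtDNA held the highest library and the 2 lowest. The log2 fold change against PBS was 0.26 (SE 0.941, edgeR adjusted p = 1), with differences of -2.04, 1.03 and -0.45, and it was -1.75 (edgeR adjusted p = 0.409) without Ox-mtDNA replicate 2. Dnase1l3 is known to be made by conventional dendritic cells and macrophages as well. In Ox-mtDNA replicate 2 the summed markers of conventional dendritic cells (648 CPM) and of monocytes and macrophages (786 CPM) were the lowest of the 9 libraries, but single markers went both ways. Of 12 monocyte and macrophage markers, 4 were at their lowest there and 3 at their highest, among them Lyz2 at 154.2 CPM, and of 12 conventional dendritic cell markers 5 were at their lowest and 0 at their highest. The share of all tested genes at such extremes is not given here, and the part of other cells in the Dnase1l3 level was not tested.

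Levels of different genes were set side by side as CPM per kilobase of exon. Pld4 was the highest of the 6 in 9 of 9 libraries, at 240 ± 110 in Ox-mtDNA, 224 ± 39.3 in mtDNA and 262 ± 57 in PBS (SD, n = 3 each), and its group mean was at or above the 98.3rd percentile of tested genes in every group. Trex1 followed at 58.9 ± 8.36 in Ox-mtDNA, 110 ± 31.2 in mtDNA and 135 ± 16.5 in PBS, ahead of Samhd1 in 7 of 9 libraries. Samhd1 was at 50.8 ± 8.02, 87.3 ± 46.5 and 83.2 ± 19.5 in the same groups, so the gap between the pair was within their spread in Ox-mtDNA and mtDNA.

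The lower end of the order was less settled. Dnase2a had group means of 18.4 ± 10.4 in Ox-mtDNA, 18.3 ± 12.4 in mtDNA and 23.8 ± 18.9 in PBS, and Pld3 had 24 ± 23.8, 16.7 ± 8.52 and 10.4 ± 7.49 (CPM per kilobase, SD, n = 3 each). Pld3 was above Dnase2a in 3 of 9 libraries, and these neighbours did not differ beyond their spread. Dnase1l3 was the lowest in 8 of 9 libraries, with Pld3 below it in PBS replicate 3, and its means were 5.08 ± 6.59, 4.84 ± 2.24 and 4.26 ± 2.11.

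**Figure D2:**
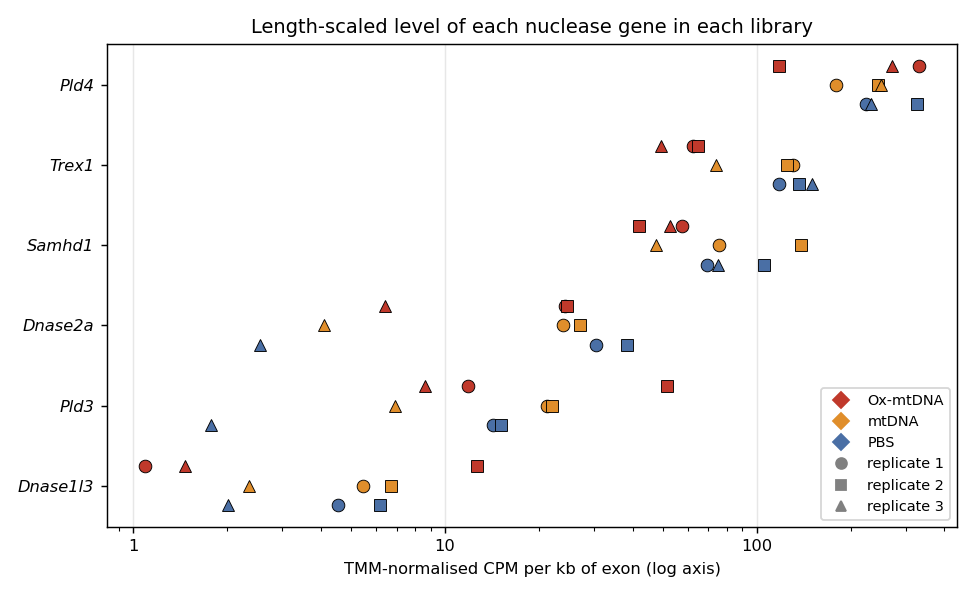
Level of each nuclease gene in CPM per kilobase of exon (log axis), with 1 row per gene and Ox-mtDNA above mtDNA above PBS within a row, and a symbol for each replicate number. Pld4 is rightmost in 9 of 9 libraries, and the rows of Trex1 and Samhd1 overlap, as do those of Dnase2a and Pld3.

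The 6 genes differed in how far replicate 3 departed from replicates 1 and 2, given here as log2 CPM differences beside the median of tested genes within 2 percentage points of the same transcript GC content. Pld3, at 59% GC, was shifted by -1.52 in Ox-mtDNA, -1.64 in mtDNA and -3.02 in PBS, near the medians of -2.1, -2.21 and -2.66 for genes like it. Trex1, at 58.1% GC, was shifted by -0.37, -0.79 and 0.25, where the medians were -1.66, -1.81 and -2.21. Trex1 was thus shifted less than the median gene of its GC content in all 3 groups.

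Dnase2a and Dnase1l3 were shifted further down than the median gene of their GC content. At 54.2% GC, Dnase2a moved by -1.93 in Ox-mtDNA, -2.62 in mtDNA and -3.72 in PBS, against medians of -0.22, -0.35 and -0.40. Dnase1l3, at 48.2% GC, moved by -1.34, -1.35 and -1.39, against medians of 0.19, 0.13 and 0.31. Samhd1 (48.1% GC) moved by 0.10, -1.11 and -0.18 and Pld4 (55.5% GC) by 0.46, 0.25 and -0.22. What sets these shifts was not tested. A GC offset, added after seeing the data, left the log2 fold change of Trex1 in Ox-mtDNA against PBS negative, at -1.82 (SE 0.804, edgeR adjusted p = 0.519).

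**Figure D3:**
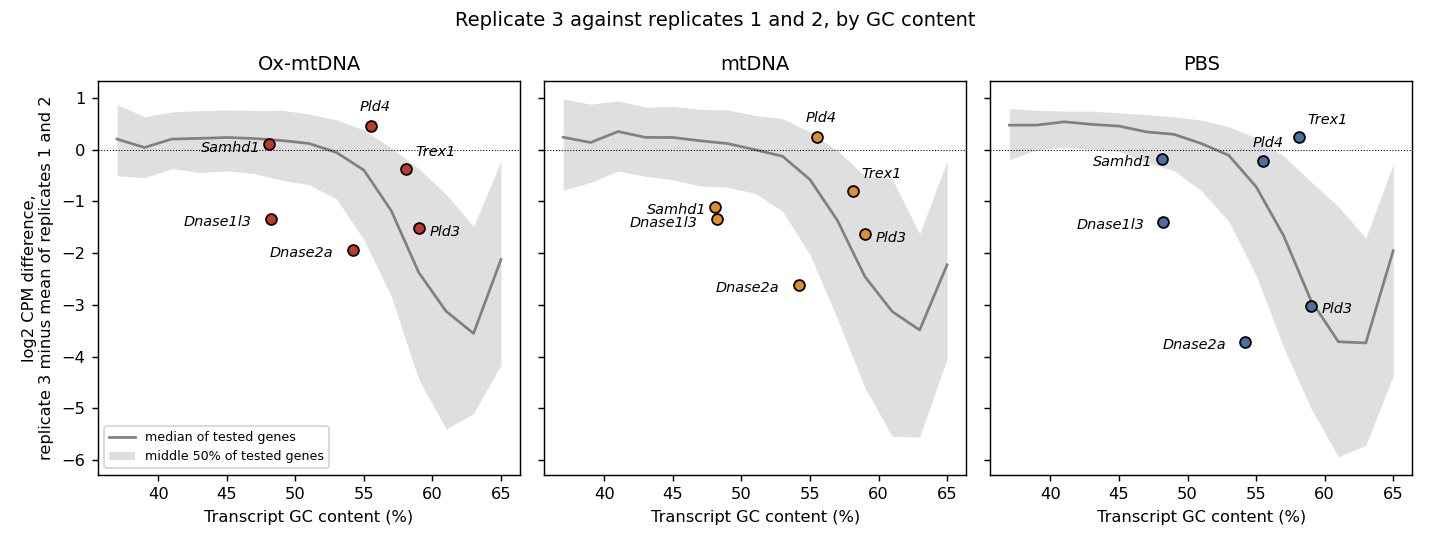
Difference of replicate 3 from the mean of replicates 1 and 2 in log2 CPM, against transcript GC content in percent, with panels for Ox-mtDNA, mtDNA and PBS. The line is the median and the band the middle 50% of tested genes. Dnase2a lies under the band in all 3 panels, at -1.93, -2.62 and -3.72, while Trex1 lies above the line in all 3.

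The effect of unoxidized DNA was read from mtDNA against PBS, where the nuclease genes overlapped between the groups in 6 of 6 cases. Over all tested genes, 10.5% did not overlap in either direction and 4.96% in the lower direction. The log2 fold changes were -0.30 for Trex1 (SE 0.284), 0.07 for Samhd1 (SE 0.397), 0.68 for Pld3 (SE 0.936), -0.22 for Pld4 (SE 0.389), -0.38 for Dnase2a (SE 1.01) and 0.19 for Dnase1l3 (SE 0.941), each at an edgeR adjusted p = 1. By edgeR 0 of 6 passed, and at an unadjusted p under 0.05 there were also 0 of 6, where 2.62% of tested genes were under it. DESeq2 and limma-voom called 0 of 6, and DESeq2 called 0.0836% of genes. Trex1 was close to its PBS level in mtDNA replicates 1 and 2, with differences of 0.15 and -0.12, and lower in replicate 3 at -1.02. In replicates 1 and 2 only its log2 fold change was 0.01 (SE 0.183), and with the GC offset it was -0.95 (SE 0.786, edgeR adjusted p = 1).

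The comparison of Ox-mtDNA with mtDNA asked what oxidation adds, and it shares its libraries with the comparisons above. Trex1 was again lower without overlap, with a log2 fold change of -0.90 (SE 0.286, edgeR adjusted p = 1, 95% interval -1.55 to -0.24). Its differences by replicate were -1.06, -0.94 and -0.58, all negative as the lack of overlap requires. Its edgeR p of 0.013 ranked 68th of 17555. Samhd1 had a log2 fold change of -0.78 (SE 0.4, edgeR adjusted p = 1), with differences of -0.40, -1.72 and 0.15, and it was -0.29 without mtDNA replicate 2. The others had 0.52 (Pld3), 0.10 (Pld4), 0.01 (Dnase2a) and 0.07 (Dnase1l3).

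By edgeR 0 of 6 passed in Ox-mtDNA against mtDNA, and 1 of 6 had an unadjusted p under 0.05, where 2.4% of tested genes were under it. DESeq2 called 0 of 6 members and 0.00574% of genes, and limma-voom called 0. Groups did not overlap for 1 of 6 genes, Trex1, in the lower direction, against 2.79% of tested genes, or 4.83% in either direction. Whether the effect of Ox-mtDNA on Trex1 differs from that of mtDNA is this same contrast, and it did not pass after adjustment.

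**Figure D4:**
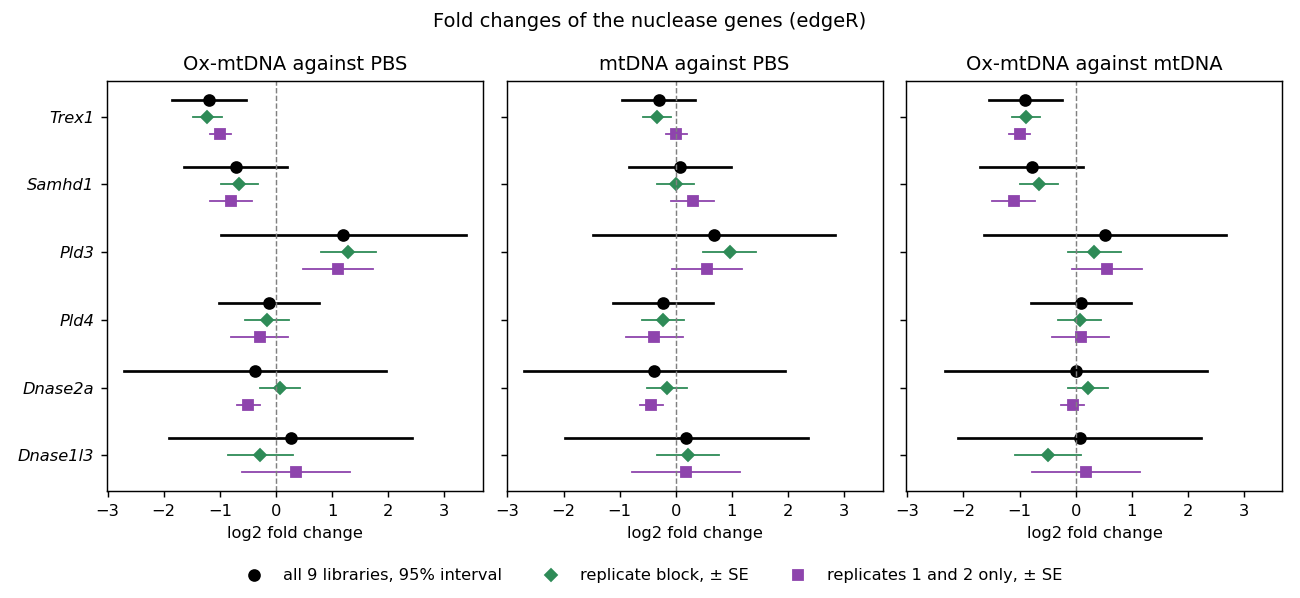
log2 fold changes of the nuclease genes by edgeR for Ox-mtDNA against PBS, mtDNA against PBS and Ox-mtDNA against mtDNA, from all 9 libraries (circles, 95% interval), with the replicate block (diamonds, ± SE) and from replicates 1 and 2 only (squares, ± SE). The interval of Trex1 lies left of 0 in both Ox-mtDNA panels, at -1.85 to -0.54 and -1.55 to -0.24, and the intervals of the other 5 genes span 0.

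Other nucleases and their partners were read from the same fits. A list of other nucleases, relatives of the 6 genes and subunits of nuclease complexes held 33 tested genes. Of these, 0 passed by edgeR, DESeq2 or limma-voom in any comparison. In Ox-mtDNA against PBS 5 had an unadjusted p under 0.05 by edgeR (15.2%, beside 9.81% of tested genes). The median log2 fold change of the list was 0.03 there, beside 0.06 over all tested genes and -0.25 over the 6 nucleases. Dclre1a, a nuclease of DNA crosslink repair, had 10.7, 26.0 and 54.7 CPM in Ox-mtDNA and 6.05, 5.16 and 8.01 CPM in PBS, a log2 fold change of 2.25 (SE 0.748, edgeR adjusted p = 0.472), and its relative Dclre1b had one of -0.84. The mtDNA libraries of Dclre1a, at 10.4, 8.27 and 37 CPM, also lay above all PBS libraries. Its log2 fold changes were 1.53 (SE 0.731) in mtDNA against PBS and 0.72 (SE 0.717) in Ox-mtDNA against mtDNA. Isg20, an interferon-induced exonuclease, had 4.79, 10.4 and 4.33 CPM in Ox-mtDNA and 17.8, 53.7 and 4.79 CPM in mtDNA, a log2 fold change of -1.97 (SE 0.84, edgeR adjusted p = 1) that was -0.81 without mtDNA replicate 2.

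Among the 16 tested genes of nuclease partners and deoxynucleotide supply, 0 passed by edgeR, DESeq2 or limma-voom in any comparison. In Ox-mtDNA against PBS 0 had an unadjusted p under 0.05 by edgeR (beside 9.81% of tested genes) and by limma-voom. DESeq2 put 1 under it, beside 2175 of 17555 tested genes. Dck, the kinase that salvages deoxycytidine, averaged 54.2 ± 18.8 CPM in Ox-mtDNA and 108 ± 4.62 CPM in PBS (SD, n = 3 each), with a fitted log2 fold change of -0.99 (SE 0.467, edgeR adjusted p = 0.545). Its libraries spanned 33.7 to 70.8 CPM in Ox-mtDNA and 105 to 113 CPM in PBS and did not overlap. Tk2, the mitochondrial thymidine kinase, had a log2 fold change of -0.41, and Set, a subunit of the complex that holds TREX1, had one of 0.36.

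Sensors of nucleic acids that these nucleases remove were read in the same way. Of 22 tested genes of endosomal nucleic acid sensing, 16 had negative fold changes in Ox-mtDNA against PBS, with a median of -0.26. Over all tested genes 46.2% were negative. By edgeR and limma-voom 0 passed, with 2 at an unadjusted p under 0.05 by each, which is 9.09% of the list beside 9.81% of tested genes by edgeR. DESeq2 called 1, Tlr7, which is also 1 of the 15 pDC markers, where it called 2.12% of all genes. Tlr7, which senses single-stranded RNA in endosomes, had 98.4, 112 and 103 CPM in the Ox-mtDNA libraries and 213, 304 and 319.7 CPM in PBS, with the 3 mtDNA libraries at 161 to 253 CPM. Its Ox-mtDNA libraries were below all others (edgeR adjusted p = 0.472, DESeq2 adjusted p = 0.000593). Of 22 tested genes of cytosolic DNA sensing, 16 were negative with a median of -0.23, and 0 passed by any of these tools. By edgeR 0 had an unadjusted p under 0.05, beside 9.81% of tested genes. DESeq2 and limma-voom put 1 each under it, where DESeq2 put 2175 of 17555 tested genes under it. The limma-voom count over all genes is not given here. Cgas had 36.5, 16.1 and 30.2 CPM in Ox-mtDNA and 18.2, 15.2 and 4.40 CPM in PBS, with only PBS replicate 1 inside the Ox-mtDNA range. Its mtDNA libraries, at 27.3, 25.2 and 27.6 CPM, lay above all PBS libraries. The log2 fold changes of Cgas against PBS were 1.13 in Ox-mtDNA (SE 0.527) and 1.08 in mtDNA (SE 0.526), neither past the threshold. Ifi203 and Mndal, DNA-binding proteins of the interferon-inducible p200 family, had log2 fold changes of -0.84 each against PBS (SE 0.387 and 0.418) and of -1.19 and -1.05 against mtDNA, none past the threshold. Ctsl, a lysosomal protease that cuts Toll-like receptors, averaged 611 ± 156 CPM in Ox-mtDNA, 700.0 ± 164 CPM in mtDNA and 1100 ± 397 CPM in PBS (SD, n = 3 each).

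Interferon-stimulated genes gave a level per library to set beside Trex1 and Samhd1, which are not in that list. The median over 39 genes was 4.26, 5 and 4.02 log2 CPM in Ox-mtDNA libraries 1, 2 and 3, then 6.26, 6.91 and 3.97 in mtDNA and 5.55, 5.68 and 4.84 in PBS. In mtDNA, replicate 3 had the lowest median, the lowest Trex1 and the lowest Samhd1 of the group. The other groups differed. In Ox-mtDNA, replicate 2 had the highest median and the highest Trex1 but the lowest Samhd1 (231 CPM). In PBS, replicate 3 had the lowest median but the highest Trex1 (173 CPM), and its Samhd1 (413 CPM) was above that of replicate 1 (379.7 CPM). Of the 39 genes 34 were negative in Ox-mtDNA against PBS, with a median log2 fold change of -1.11, and 39 were negative in Ox-mtDNA against mtDNA, with a median of -1.71. In mtDNA against PBS 35 were positive, with a median of 0.59. By edgeR 0 of 39 passed in each comparison, and an unadjusted p under 0.05 by edgeR was found for 7 in Ox-mtDNA against PBS (17.9%, beside 9.81% of tested genes), 17 in Ox-mtDNA against mtDNA (43.6%, beside 2.4%) and 2 in mtDNA against PBS (5.13%, beside 2.62%). Over all tested genes, fold changes were negative for 46.2% in Ox-mtDNA against PBS and 45.8% in Ox-mtDNA against mtDNA, and positive for 52% in mtDNA against PBS. In Ox-mtDNA against mtDNA the same count was 28 by DESeq2, which put 585 of 17555 tested genes under 0.05, and 6 by limma-voom. The limma-voom count over all genes is not given here. Without overlap, 2 of 39 were lower (beside 2.79% of tested genes). The replicate 3 medians were 4.02 in Ox-mtDNA and 3.97 in mtDNA. In Ox-mtDNA against PBS 16 of 39 were lower without overlap (beside 8.08%). After adjustment DESeq2 called 1 of the 39, Ifi47, in Ox-mtDNA against PBS, where it called 2.12% of all genes. It called 0 of the 39 in the other comparisons, and limma-voom called 0. Ifi47, an interferon-inducible GTPase, had 54.8, 68.9 and 87.3 CPM in Ox-mtDNA, 190.1, 183 and 111 CPM in mtDNA and 159, 200 and 163 CPM in PBS, so its Ox-mtDNA libraries were below all others. Cxcl10, an interferon-induced chemokine, had 19.04, 25.02 and 37.1 CPM in Ox-mtDNA, 66.9, 22.3 and 69.7 CPM in mtDNA and 18.5, 4.07 and 4.37 CPM in PBS. Both DNA groups lay above all PBS libraries, with a log2 fold change of 2.56 in mtDNA against PBS (SE 0.724, edgeR adjusted p = 1). The pDC markers were negative in 13 of 15 cases in Ox-mtDNA against PBS and in 13 of 15 in mtDNA against PBS, and the part of interferon signalling and of cell makeup in the Trex1 and Samhd1 levels was not tested.

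**Figure D5:**
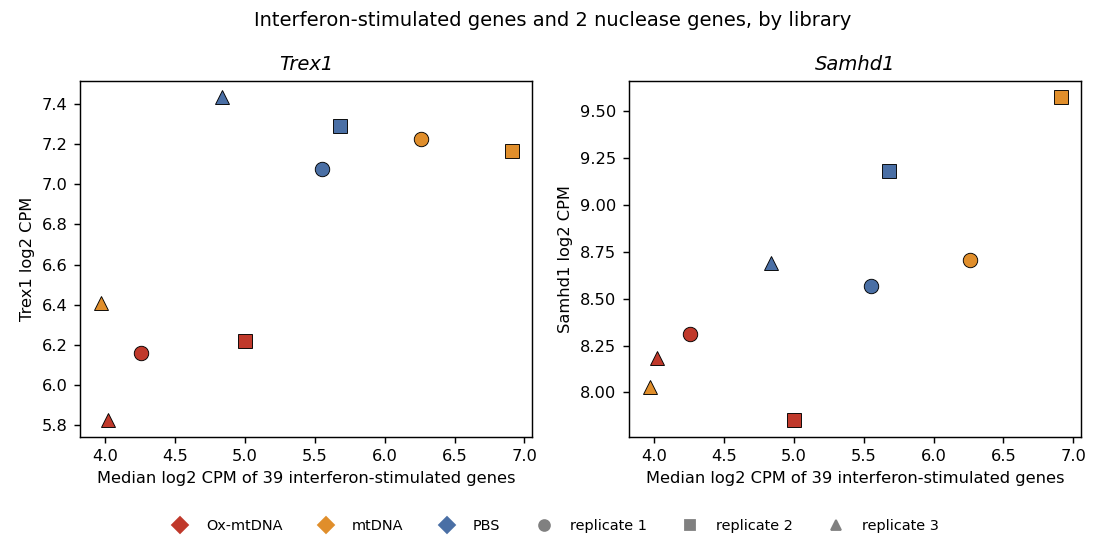
log2 CPM of Trex1 and of Samhd1 in each library against the median log2 CPM of 39 interferon-stimulated genes in that library, coloured by Ox-mtDNA, mtDNA and PBS with a symbol for each replicate number. The Ox-mtDNA libraries and mtDNA replicate 3 lie at low Trex1 levels with medians of 3.97 to 5, and PBS replicate 3 has the highest Trex1 level at a median of 4.84.

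The genes whose pattern over the 9 libraries was most like that of each nuclease were found by the Pearson r of log2 CPM after the mean of each replicate number was removed. For Trex1 they were Dock10, Zfp961 and Hltf (r = 0.994 each). Samhd1 was most like Isoc1 (0.995), Pld3 like Gm19265 (0.995), Pld4 like Gpr108 (0.999), Dnase2a like Letm1 (0.996) and Dnase1l3 like Gm13610 (0.986). Gm19265 had only 1.14 to 4.44 CPM over the 9 libraries, so its likeness to Pld3 rests on low values. Dock10 had 290.2, 274 and 358.5 CPM in Ox-mtDNA, 389.7, 355 and 421 CPM in mtDNA and 368.5, 362 and 518 CPM in PBS. Without that centring, 1 of the 18 closest genes stayed among the closest 3, Gpr108 for Pld4, at r = 0.978. The 9 libraries share groups and replicate numbers, so these values are descriptions.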

How the data were processed

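Raw counts per gene of 9 libraries were deposited by the authors with no normalization. Per the labels' protocols, polyadenylated RNA was selected and cDNA was primed with random hexamers. Per the submitters' processing notes, fastp 0.23.4, STAR 2.7.11b, GRCm39 and featureCounts 2.0.1 were used. Per the file headers, fragments were counted over exons of GENCODE M34 without strand, fragments over several genes counted for each, and multi-mapping fragments were left out. Exon length, used for levels per kilobase, came from the deposited table.

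Groups came from the sample titles. In R 4.3.3, edgeR 4.0.16 kept 17555 genes (filterByExpr, minimum count 10) and scaled libraries by TMM, and 1 robust quasi-likelihood fit of all 9 libraries (6 residual degrees of freedom) gave the 3 comparisons, with Benjamini-Hochberg adjustment over all tested genes and a threshold of 0.05. The method was tested on simulated data that lacked the replicate 3 shift and its GC pattern, so that test does not cover these features. Log2 CPM used a prior count of 2. Replicate counts differed by 15.4 to 347 times the counting variance (chi-square per degree of freedom), so replicates rather than depth limit the precision. No 2 libraries of a group were alike within counting noise.

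Same-numbered libraries deviated together (r = 0.487 to 0.897 for all pairs of groups). Replicate 3 stood apart in every group, which by itself can make same-numbered deviations alike, and no r of unlike-numbered libraries is given here. These values therefore cannot show whether the numbers pair the samples. The block was an alternative, as were DESeq2 1.42.0, limma-voom 3.58.1 with and without quality weights, other size factors, filters and subsets of libraries. Symbols were matched for 51884 of 57126 genes, and GC content, from GENCODE M21 transcripts, for 95.4% of tested genes. The member genes, gene lists and tests were chosen with earlier results of these data known. Named genes were the members, and from each of 5 pathway lists up to 3 genes with the smallest unadjusted p in a comparison. Some genes that this rule names are not reported here.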

Additional observations from a re-analysis of the deposited data

How the results depend on the processing

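The number of nuclease genes past the threshold stayed at 0 by edgeR and limma-voom under all alternatives tried, and was 1 (Trex1) by DESeq2 in Ox-mtDNA against PBS. Leaving out each library in turn gave 0 nuclease genes and 0 of all genes in each comparison (range 0 to 0). Over all genes, Ox-mtDNA against PBS gave 370 by DESeq2, 57 by limma-voom with quality weights, 25 with replicates 1 and 2 only, 1 with the replicate block and 1 with a GC offset and the replicate block. DESeq2 called 14 in mtDNA against PBS and 1 in Ox-mtDNA against mtDNA. The GC offset, alone or with the block, and the block within replicates 1 and 2 were chosen after seeing the data. Within replicates 1 and 2 the replicate block gave 0 genes, in place of the 25 without it. With all 9 libraries the block changed no call of the 6 nuclease genes, and the cause of these differences was not tested.

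Trex1 kept its direction under every alternative in both comparisons with Ox-mtDNA, between -1.82 and -0.99 against PBS and between -1.08 and -0.76 against mtDNA. With the block its log2 fold change against PBS was -1.22. In mtDNA against PBS it turned to 0.01 in replicates 1 and 2 only, with or without the block, and was -0.95 with the GC offset and -0.53 with the GC offset and the block. Of 234 values of the 6 genes with no library left out singly, 208 kept their call and direction, 25 changed sign and 1 passed (Trex1 by DESeq2, -1.19).

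Signs changed as follows. Ox-mtDNA against PBS: Pld4 was 0.01 with limma-voom quality weights, Dnase2a 0.16 with limma-voom and 0.07 with the block, and Dnase1l3 -0.42 with limma-voom, -1.52 with quality weights, -0.28 with the block, -0.30 with a GC offset and the block and -0.16 in replicates 1 and 2 with the block. mtDNA against PBS: Samhd1 was -0.04 with limma-voom and -0.03 with a GC offset and the block, and Dnase2a 0.00 with limma-voom. Ox-mtDNA against mtDNA: Pld3 was -0.56 with quality weights, Pld4 -0.02 with limma-voom and 0.00 with a GC offset and the block, Dnase2a -0.40 with quality weights, -0.04 without a filter and -0.05 in replicates 1 and 2 with or without the block, and Dnase1l3 -0.65 with limma-voom, -1.73 with quality weights, -0.49 with the block, -0.49 with a GC offset and the block and -0.37 in replicates 1 and 2 with the block.

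With single libraries left out, values ran as follows. Ox-mtDNA against PBS: Trex1 -1.30 to -1.12, Samhd1 -0.84 to -0.52, Pld3 -0.04 to 1.59, Pld4 -0.43 to 0.19, Dnase2a -0.91 to 0.14 and Dnase1l3 -1.75 to 0.70. mtDNA against PBS: Trex1 -0.45 to -0.14, Samhd1 -0.44 to 0.32, Pld3 0.18 to 1.05, Pld4 -0.36 to -0.04, Dnase2a -0.91 to 0.14 and Dnase1l3 -0.15 to 0.55. Ox-mtDNA against mtDNA: Trex1 -1.08 to -0.76, Samhd1 -1.04 to -0.29, Pld3 -0.72 to 0.90, Pld4 -0.19 to 0.42, Dnase2a -0.45 to 0.41 and Dnase1l3 -1.93 to 0.53. Among the other named genes, Dclre1a ran between 1.45 and 2.64 in Ox-mtDNA against PBS, and in Ox-mtDNA against mtDNA Isg20 ran between -2.49 and -0.81 and Mndal between -1.27 and -0.66.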
